A study of Mus musculus with 6 samples.

Results

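Slc1a5 and Slc1a4 encode ASCT2 and ASCT1, sodium-dependent exchangers that carry small neutral amino acids across the plasma membrane, and only ASCT2 is known as a major route for glutamine. They were followed with 8 further transporter genes, chosen by symbol from the deposited count table: Slc7a5, Slc3a2, Slc7a6, Slc38a1, Slc38a2, Slc43a1, Slc7a1 and Slc6a6. All 10 were found among the 37991 rows of that table, and all 10 passed the filter on low counts. The set is not wholly neutral, since Slc7a1 carries cationic amino acids and Slc6a6 carries taurine. RNA came from regulatory T cells (Treg), sorted from mouse spleen as YFP-positive CD4 cells, in 3 libraries labelled KAP1 deficient and 3 labelled wild type, KAP1 sufficient. KAP1, the product of Trim28, silences genes and retroelements when KRAB zinc finger proteins recruit it. The sources used here do not give what drives the YFP, how KAP1 was removed, or the age of the mice. The strain label reads C57BL/6 for all 3 sufficient libraries and for deficient replicate 1, C57BL/7 for deficient replicate 2 and C57BL/8 for deficient replicate 3. The labels name no animals, so a p-value here measures spread between samples that may be only technical.

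Neutral amino acid transporters of T cells work as a network. Slc38a1 and Slc38a2 encode SNAT1 and SNAT2, which load the cell with glutamine and other small amino acids using the sodium gradient, and ASCT1 and ASCT2 exchange one small amino acid for another. Slc7a5 encodes LAT1, which pairs with the heavy chain CD98 (Slc3a2) and trades intracellular amino acids for leucine and other large ones that feed the kinase mTORC1. T cell activation is known to raise several of these genes, and in mice loss of ASCT2 is known to impair helper T cell responses while Treg still form.

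Trim28 went against the label in 2 libraries. It stood at 23.0, 18.6 and 231 CPM (counts scaled to a common library total) in deficient replicates 1, 2 and 3, against 244, 244 and 21.2 CPM in sufficient replicates 1, 2 and 3. The library labelled deficient replicate 3 thus lay with the high values and the library labelled sufficient replicate 3 with the low ones. Each comparison by label is therefore given for all 6 libraries and for the 4 libraries left when both replicates 3 are taken out, with every library keeping its label. Whether these 2 libraries carry each other's label was not tested, and if they do, the 6-library values and p-values mix the genotypes.

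Library totals ran from 9954344 to 10994745 counts, and 3 counts, the upper limit for a gene seen 0 times, equal 0.273 to 0.301 CPM, which covers counting error only. Mitochondrial genes held 1.33% to 1.41% of counts in the 3 libraries with low Trim28 and 1.61% to 2.097% in the 3 with high Trim28. The defining Treg markers were high in every library, with 5934 to 7546 counts of Foxp3 and 9132 to 9880 counts of Il2ra. In the 4 libraries 3 of 7 Treg markers were called by edgeR, against 17.4% of all tested genes. Their log2 fold changes were -0.25 ± 0.05 for Foxp3, -0.15 ± 0.05 for Cd4 and 0.19 ± 0.05 for Ikzf2 (SE). The summed level of 7 B cell markers was 544 to 606 CPM in the deficient and 581 to 697 CPM in the sufficient libraries, nearly all of it Ighm. By Trim28 level that sum did not overlap, at 544 to 581 CPM where Trim28 was low and 606 to 697 CPM where it was high. The Treg marker sum also separated, at 4283 to 4423 CPM with low and 4485 to 4549 CPM with high Trim28. Without overlap, the stromal sum was lower with low Trim28 and the dendritic and natural killer sums were higher. The stromal sum was nearly all Pecam1, at 199 to 246 CPM, while Pdgfra had 0 counts and Cdh5 had 0 or 1. The dendritic sum rested on few reads, mainly of Zbtb46 (8 to 35 counts) and Xcr1 (4 to 9 counts), while Itgax and Siglech had 0. The myeloid, CD8 T cell and erythroid sums overlapped. Of all tested genes, 26.4% had ranges that did not overlap by Trim28 level. Of 4 B cell markers tested in the 4 libraries 3 fell, against 7.39% of all tested genes. Igkc fell by 2.55 ± 0.57, Cd22 by 1.18 ± 0.22 and Ighm by 0.27 ± 0.05 on the log2 scale (SE), thus in the direction of Slc1a5. Igkc had 4 to 10 counts with low and 14 to 41 with high Trim28, and Ms4a1 had 0 or 1 count in every library. Of 4 natural killer markers, Klrb1c had 109, 96 and 24 counts in deficient replicates 1, 2 and 3, against 28, 26 and 90 counts in sufficient replicates 1, 2 and 3, Eomes had 11 to 43 counts, and Ncr1 and Klra8 had 0 in every library. Klrb1c rose in the 4 libraries by 1.94 ± 0.22 on the log2 scale (SE). Eomes went the other way there, at -1.11 ± 0.40, and did not pass (edgeR adjusted p = 0.0678). The part of these markers and of the mitochondrial share in the results was not tested.

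The start of Slc1a4 holds a match to a short motif. Its sequence is shown because Slc1a4 had the largest fold change of the 10 genes in the 4 libraries. It covers the 100 bases before the annotated start site and the first 15 transcribed bases, from RefSeq on GRCm38.p6 (mm10), minus strand, at chr11:20332699-20332813.
Slc1a4 start: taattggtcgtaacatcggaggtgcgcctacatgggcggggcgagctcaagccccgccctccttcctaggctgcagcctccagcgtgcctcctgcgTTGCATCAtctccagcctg
Capitals mark TTGCATCA, the reverse complement of a match to TGATGNAA, the core of the CARE element that the stress factor ATF4 is known to bind. The match begins 4 bases before the start site. TGATGNAA was searched on both strands of promoter windows of 250 bases before to 50 after each start, and 3.91% of 32544 distinct windows held it. The E-box CACGTG, a site of MYC-type factors, was in 7.17%. The table held windows for 6 of the 10 genes, and among these only Slc1a4 had TGATGNAA and only Slc43a1 had CACGTG. It held none for Slc1a5, Slc7a5, Slc38a1 and Slc6a6, so these genes were not searched. A match describes letters and does not show that a factor binds.

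Slc1a5 was the transporter gene with the highest level per exon length in libraries with high Trim28, and it was far lower in the others. Slc1a5 (ENSMUSG00000001918, chromosome 7, 16781340 to 16798274, plus strand, mm10, exon length 4173 bases in GENCODE M21) had 93.9, 91.0 and 435 CPM in deficient replicates 1, 2 and 3, against 436, 424 and 93.0 CPM in sufficient replicates 1, 2 and 3. Set against the average of sufficient replicates 1 and 2, the library labelled deficient replicate 3 reached 101%. Set against the average of deficient replicates 1 and 2, the library labelled sufficient replicate 3 reached 101%. As labelled, Slc1a5 averaged 207 ± 198 CPM in deficient and 318 ± 195 CPM in sufficient libraries (SD, n = 3 each), and the groups overlapped. Over all 6 libraries its log2 fold change was -0.63 ± 0.99 (SE), with an edgeR adjusted p = 0.885. Slc1a5 in the 4 libraries fell by 2.21 ± 0.06 on the log2 scale, or 4.63-fold (edgeR adjusted p = 8.83e-13), with both deficient values below both sufficient values. In bulk RNA, fewer cells with the transcript and less of it per cell cannot be told apart.

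Slc1a4 went the other way and was close to undetected where Slc1a5 was high. Slc1a4 (ENSMUSG00000020142, chromosome 11, 20302180 to 20332713, minus strand, exon length 3926 bases) had 216, 171 and 8 counts in deficient replicates 1, 2 and 3, against 15, 7 and 196 counts in sufficient replicates 1, 2 and 3. On the CPM scale these were 21.4, 17.2 and 0.728 in deficient replicates 1, 2 and 3, against 1.48, 0.688 and 19.0 in sufficient replicates 1, 2 and 3. The 3 low libraries thus lay above the 3-count limit but by few reads, which leaves the size of the fold imprecise. As labelled, Slc1a4 had a log2 difference of 0.88 ± 1.59 (SE), with an edgeR adjusted p = 0.901. Slc1a4 in the 4 libraries rose by 4.14 ± 0.26 on the log2 scale, or 17.7-fold (edgeR adjusted p = 4.89e-08). That value lay between 3.69 and 4.80 over all alternatives run.

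**Figure D1:**
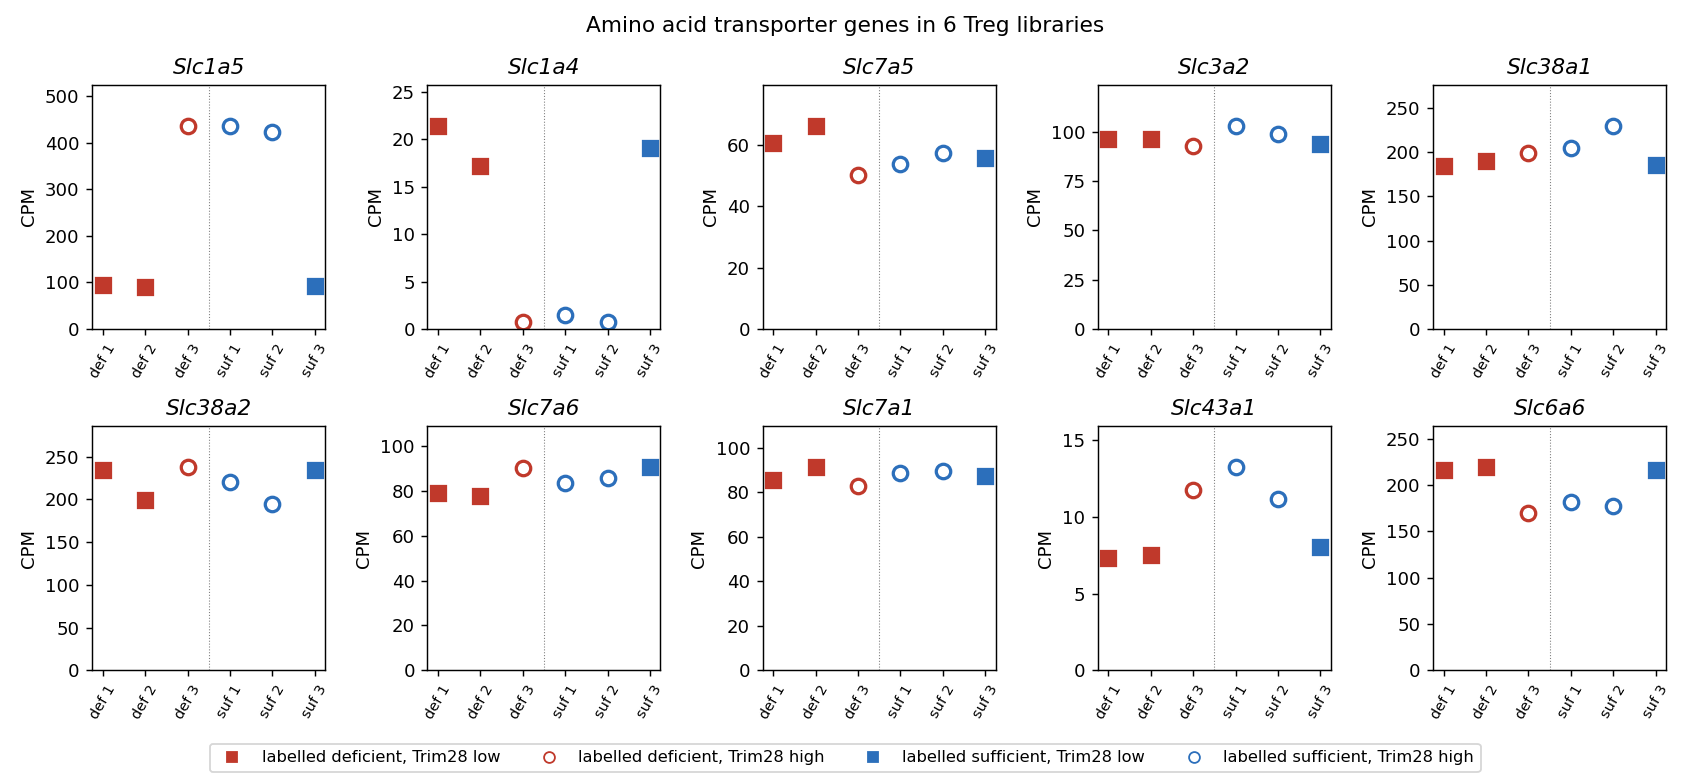
CPM (y axis, from 0) of each of the 10 transporter genes in each library (x axis, deficient left of sufficient; 1 point per library, no error bar). Filled squares are libraries with low Trim28 and open circles those with high Trim28; Slc1a5 sits at 91.0 to 93.9 CPM in the squares and 424 to 436 CPM in the circles, and Slc1a4 at 17.2 to 21.4 and 0.688 to 1.48 CPM.

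Of the 10 genes, 0 passed the edgeR test with all 6 libraries, where 0.0165% of 12158 tested genes were called. At an unadjusted p under 0.05 the count was also 0, against 7.76% of tested genes, and DESeq2 called 0 of the 10 as well. With the 4 libraries 2 rose, 3 fell and 5 did not pass, where the called share of 12183 tested genes was 17.4%, made up of 9.96% higher and 7.39% lower. Past a 2-fold change, Slc1a4 was the 1 gene higher, against 1.53% of tested genes, and Slc1a5 the 1 gene lower, against 0.804%. DESeq2 called 3 of the 10 (Slc1a5, Slc1a4 and Slc6a6), against 7.57% of the genes it tested. The median log2 fold change of the 10 was -0.04 in the 4 libraries, beside 0.00 for all tested genes. Read beside Trim28, 5 of the 10 had ranges that did not overlap between the 3 libraries with low and the 3 with high Trim28, and 26.4% of tested genes did so. Of the 5, Slc1a4 and Slc6a6 were higher with low Trim28, as were 11.9% of tested genes, and Slc1a5, Slc38a1 and Slc43a1 were lower, as were 14.5%. The 5 were those called in the 4 libraries. As labelled, 0 of the 10 had ranges that did not overlap, against 12.8% of tested genes. The groups by Trim28 level were read off a measured gene, share 4 of their libraries with the 4-library fit, and were given no test.

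**Figure D2:**
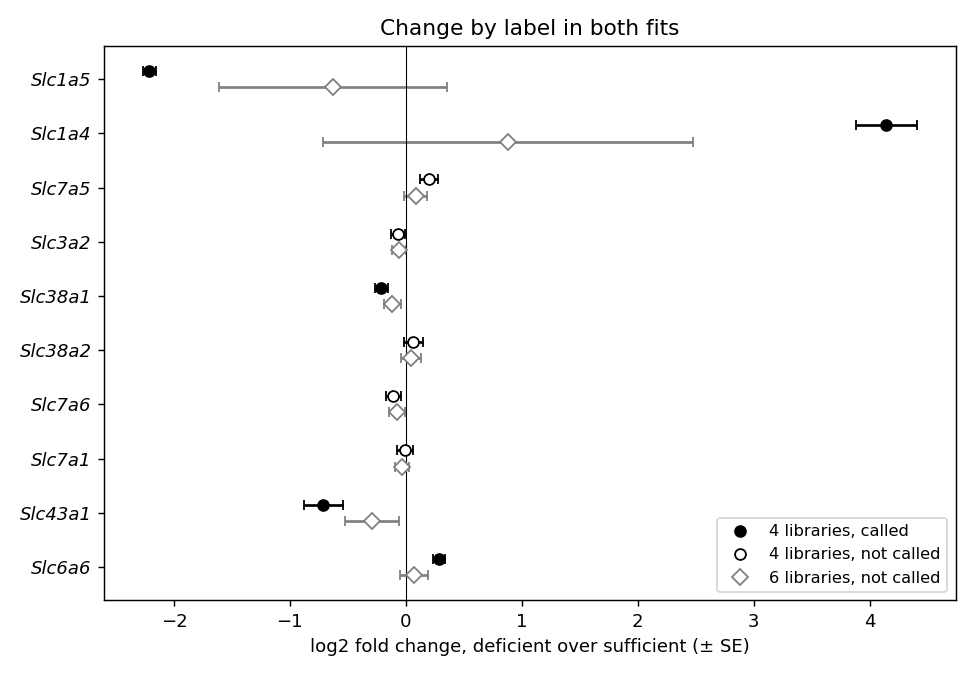
Log2 fold change of deficient over sufficient (x axis) for each gene (y axis), with bars of 1 SE, from the 4 libraries (black circles) and all 6 (grey diamonds). Filled symbols passed the edgeR test; Slc1a5 at -2.21 and Slc1a4 at 4.14 lie apart from the other 8 genes, which lie between -0.71 and 0.29, and the wide grey bars belong to the same pair.

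Among the sodium-coupled loaders, Slc38a1 changed little and Slc38a2 did not pass. Slc38a1 (chromosome 15) had 184, 190 and 199 CPM in deficient replicates 1, 2 and 3, against 205, 230 and 185 CPM in sufficient replicates 1, 2 and 3. It was lower in both deficient libraries of the 4 than in both sufficient ones, and its log2 value fell by 0.21 ± 0.06 (SE), at an edgeR adjusted p = 0.0217. The call was lost without deficient replicate 1 (-0.19, adjusted p = 0.0978), without sufficient replicate 2 (-0.13, adjusted p = 0.17) and with DESeq2 (-0.21, adjusted p = 0.106). Slc38a2 (also chromosome 15) had 234, 199 and 238 CPM in deficient replicates 1, 2 and 3, against 220, 195 and 234 CPM in sufficient replicates 1, 2 and 3. Its groups overlapped, and its log2 fold change in the 4 libraries was 0.07 ± 0.08 (edgeR adjusted p = 0.65).

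The heteromeric exchangers did not pass the test in either fit. Slc3a2, the CD98 heavy chain (chromosome 19), had 96.1, 96.1 and 92.6 CPM in deficient replicates 1, 2 and 3, against 103, 99.0 and 93.7 CPM in sufficient replicates 1, 2 and 3. Its log2 fold change in the 4 libraries was -0.07 ± 0.06 (SE). Slc7a5, the LAT1 light chain (chromosome 8), had 60.6, 66.2 and 50.2 CPM in deficient replicates 1, 2 and 3, against 53.5, 57.2 and 55.6 CPM in sufficient replicates 1, 2 and 3. Both deficient values of the 4 libraries lay above both sufficient ones, at a log2 fold change of 0.20 ± 0.08 with edgeR adjusted p = 0.0841, and without deficient replicate 1 it was called at 0.26 (adjusted p = 0.0486). Slc7a6 encodes y+LAT2, which also pairs with CD98 and exchanges cationic for neutral amino acids. Slc7a6 ran from 77.6 to 90.3 CPM in deficient and from 83.6 to 90.7 CPM in sufficient libraries, and its log2 fold change in the 4 libraries was -0.11 ± 0.07 (edgeR adjusted p = 0.294). Per kilobase of exon, Slc3a2 stood at 0.782 to 0.81 times the sum of Slc7a5 and Slc7a6 in deficient and 0.762 to 0.893 times in sufficient libraries.

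Slc43a1, Slc7a1 and Slc6a6 complete the set. Slc43a1 encodes LAT3, which lets large neutral amino acids pass along their gradient. Slc43a1 (chromosome 2) was low, with 74, 75 and 129 counts in deficient replicates 1, 2 and 3, against 134, 114 and 83 counts in sufficient replicates 1, 2 and 3. Slc43a1 fell in the 4 libraries by 0.71 ± 0.17 as log2 (SE), with edgeR adjusted p = 0.00863, a call lost without sufficient replicate 1 (-0.58, adjusted p = 0.0634) and with DESeq2 (adjusted p = 0.112). Slc6a6, the taurine transporter (chromosome 6), had 217, 220 and 169 CPM in deficient replicates 1, 2 and 3, against 182, 177 and 217 CPM in sufficient replicates 1, 2 and 3. Slc6a6 rose by 0.29 ± 0.05 on the log2 scale in the 4 libraries (edgeR adjusted p = 0.00124), and the libraries with low Trim28 all lay above those with high Trim28. Slc7a1, the cationic transporter CAT-1 (chromosome 5), varied least of the 10, from 82.9 to 91.3 CPM in deficient and from 87.2 to 89.3 CPM in sufficient libraries, with a log2 fold change of -0.01 ± 0.07 in the 4 libraries (edgeR adjusted p = 0.965).

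Per exon length, the order of the 10 genes differed between libraries mainly by the place of Slc1a5. In deficient replicates 1 and 2, Slc3a2 led at 27.2 CPM per kilobase in both, and Slc1a5 was 4th at 21.8 and 22.5. In sufficient replicates 1 and 2, Slc1a5 led at 102 and 105 CPM per kilobase, ahead of Slc3a2 at 28.1 and 29.2. Slc38a2 and Slc6a6 changed places between deficient replicates 1 and 2, and so did Slc7a5 and Slc7a6, so those neighbours were not separated beyond their spread. Slc1a4 was 9th in deficient replicates 1 and 2, at 4.38 and 5.46 CPM per kilobase, above Slc43a1 at 1.28 and 1.32. In sufficient replicates 1 and 2 Slc1a4 was 10th, at 0.175 and 0.378 CPM per kilobase, below Slc43a1 at 1.96 and 2.32. The libraries labelled deficient replicate 3 and sufficient replicate 3 held Slc1a5 1st and 4th.

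As a share of the summed CPM of the 10 genes, which is a share of reads not corrected for length, Slc1a5 made up 8.71%, 8.62% and 31.8% in deficient replicates 1, 2 and 3, against 31.5%, 31.0% and 8.59% in sufficient replicates 1, 2 and 3. The 95% Wilson intervals, which cover counting error only, ran from 8.08% to 9.26% over the 3 low libraries and from 30.2% to 32.5% over the 3 high ones. As labelled the share averaged 16.4 ± 13.3% in deficient and 23.7 ± 13.1% in sufficient libraries (SD, n = 3 each; two-sided exact permutation p = 1, where 0.1 is the smallest p the design allows). In the 4 libraries the deficient mean was 22.5 percentage points lower, at 8.67% against 31.2%. Slc1a4 made up 1.99%, 1.63% and 0.0531% in deficient replicates 1, 2 and 3, against 0.107%, 0.0502% and 1.76% in sufficient replicates 1, 2 and 3. As labelled its share averaged 1.22 ± 1.03% in deficient and 0.638 ± 0.969% in sufficient libraries (SD, n = 3 each; two-sided exact permutation p = 0.6).

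The summed level of the set followed Slc1a5. The 10 genes together held 1078, 1056 and 1370 CPM in deficient replicates 1, 2 and 3, against 1387, 1369 and 1083 CPM in sufficient replicates 1, 2 and 3. Without Slc1a5 and Slc1a4, the other 8 held 934 to 963 CPM in deficient and 944 to 971 CPM in sufficient libraries. In the 4 libraries Slc1a5 was lower by 338 CPM (-338 deficient minus sufficient) and Slc1a4 higher by 18.2 CPM, which is 5.4% of the Slc1a5 difference. Within the pair, Slc1a4 made up 18.6%, 15.9% and 0.167% of reads in deficient replicates 1, 2 and 3, against 0.339%, 0.162% and 17.0% in sufficient replicates 1, 2 and 3. Per kilobase, Slc1a5 stood at 4.12 and 4.98 times Slc1a4 in deficient replicates 1 and 2, against 277 and 580 times in sufficient replicates 1 and 2, where the Slc1a4 values rest on 15 and 7 counts.

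**Figure D3:**
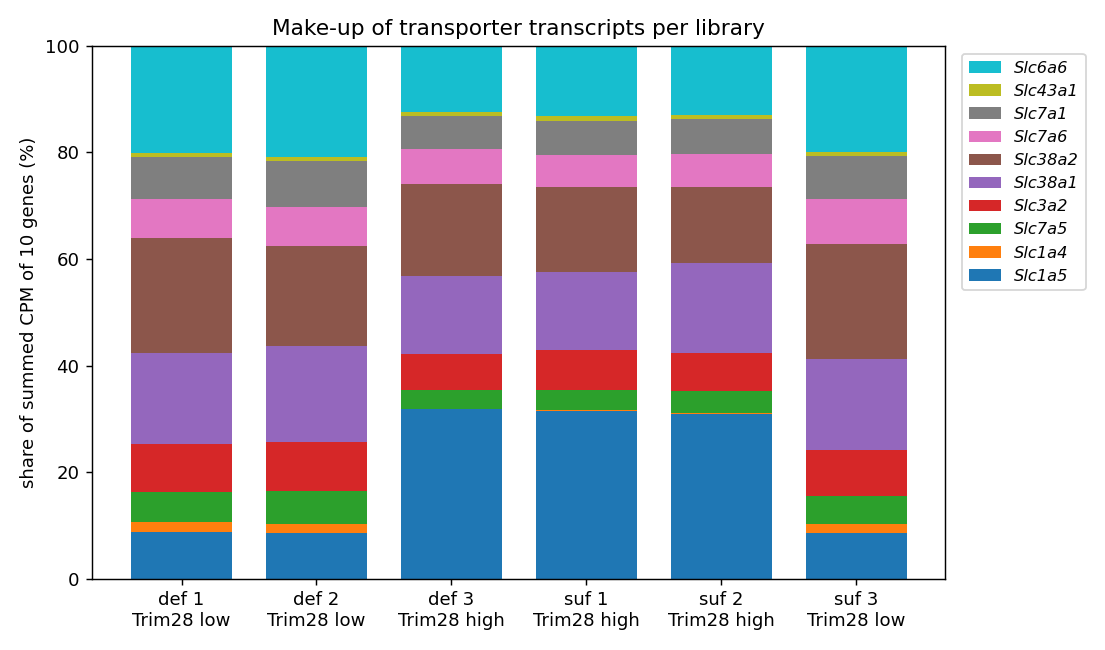
Share of the summed CPM of the 10 genes held by each gene (stacked bars adding to 100%) in each library, deficient left of sufficient, with the Trim28 level under each bar. The Slc1a5 segment at the base spans 8.59% to 8.71% where Trim28 is low and 31.0% to 31.8% where it is high.

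Slc1a5 and Trim28 both lie on chromosome 7, with 3.75 megabases between the end of Trim28 and the start of Slc1a5. The other 9 genes lie on other chromosomes. Within 500 kb of the Slc1a5 start, 14 genes were tested in the 4 libraries, of which 2 were higher, 3 lower and 9 not called, where 9.96% of all tested genes were higher and 7.39% lower. Those called were Sae1, which activates SUMO (log2 fold change 0.56 ± 0.06, SE), Tmem160 (0.45 ± 0.12), the hypoxia factor gene Hif3a (-1.22 ± 0.25), the pro-apoptotic Bbc3 (-0.52 ± 0.11) and the prostacyclin receptor gene Ptgir (-0.65 ± 0.14). Each differed less than Slc1a5. Within 500 kb of Slc1a4, 7 genes were tested and 3 were called, against 17.4% of all tested genes, all higher: Actr2 of the actin-branching complex (0.26 ± 0.06), the small GTPase gene Rab1a (0.20 ± 0.06) and Aftph (0.22 ± 0.05).

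**Figure D4:**
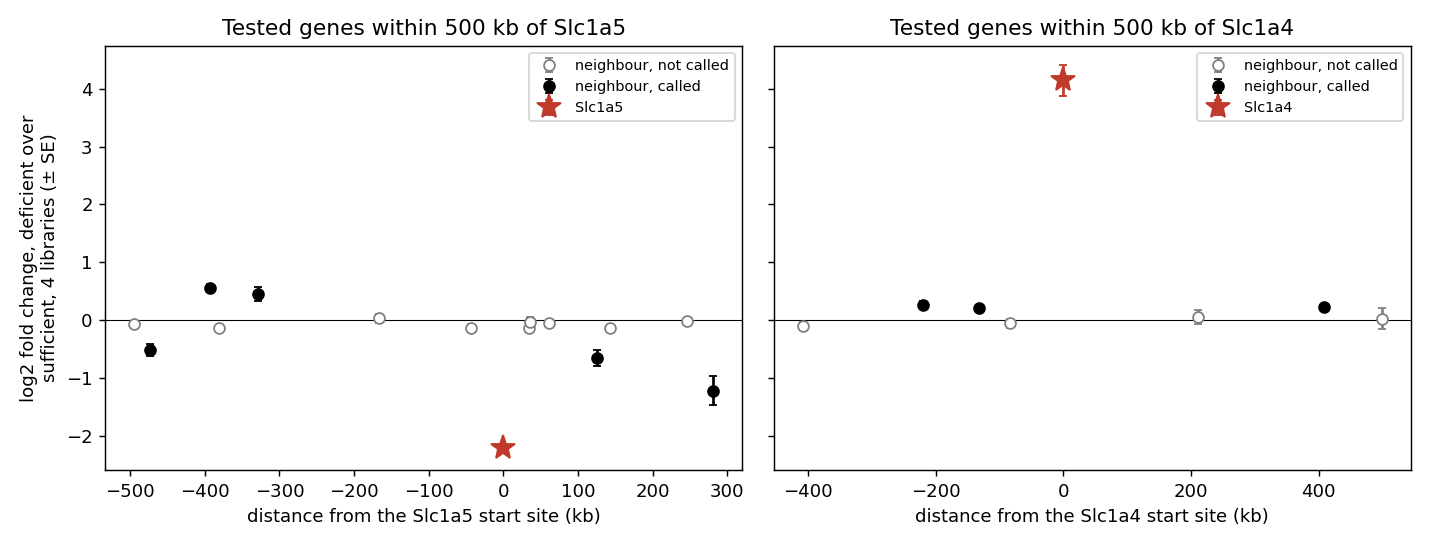
Log2 fold change of deficient over sufficient in the 4 libraries (y axis, bars of 1 SE) against distance from the start of Slc1a5 (left) or Slc1a4 (right) in kb, for every tested gene within 500 kb. Filled circles passed the edgeR test; neighbours span -1.22 to 0.56 around Slc1a5 and -0.10 to 0.26 around Slc1a4, while the stars lie at -2.21 and 4.14.

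The genes with a pattern most like each of the pair were found by the distance between centred log2 CPM profiles over the 6 libraries, among 10176 genes. Nearest to Slc1a5 was Ccdc61 (distance 0.336, Pearson r = 0.997), followed by the peptidoglycan recognition gene Pglyrp1 (0.771) and Nav2 (0.782), all on chromosome 7. Ccdc61 (18890883 to 18910415) lies next to Pglyrp1 (18871331 to 18890459), and Nav2 (48908716 to 49610090) lies far from both. The share of the 10176 genes that lie on chromosome 7 was not counted. The next distances were 0.783 and 0.929, for genes on chromosomes 9 and 12. Ccdc61 ran from 6.75 to 7.28 CPM in the 3 libraries with low Trim28 and from 26.5 to 32.0 CPM in the 3 with high Trim28. Nearest to Slc1a4 were Spats2 (0.696), the lipid transporter gene Abca5 (0.881), the vomeronasal receptor gene Vmn2r96 (0.924), Pgpep1l (1.05) and Rnf152 (1.16). In that order they lie on chromosomes 15, 11, 17, 7 and 1. Spats2 had 14.7, 10.7 and 0.364 CPM in deficient replicates 1, 2 and 3, against 0.693, 0.786 and 15.8 CPM in sufficient replicates 1, 2 and 3. These likenesses rest on 6 shared libraries that fall into 2 sets by Trim28, so they are descriptions only.

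Of 40 other plasma membrane transporter genes 10 passed the filter on low counts, and in the 4 libraries 4 of them fell, none rose and 6 did not pass, where 7.39% of all tested genes fell and 9.96% rose, with a median log2 fold change of -0.33 beside 0.00 for all tested genes. In all 6 libraries 0 of the 10 passed the edgeR test, and 1 had an unadjusted p under 0.05, against 7.76% of all tested genes. Those that fell were Slc7a10, another partner of CD98 (-1.57 ± 0.22, SE, edgeR adjusted p = 0.000204), Slc16a10, which carries aromatic amino acids (-0.78 ± 0.25, adjusted p = 0.0468), Slc43a2, which encodes LAT4 (-0.20 ± 0.06, adjusted p = 0.0264), and Slc43a3, known to carry purine bases (-0.47 ± 0.15, adjusted p = 0.0499). Slc7a10 stood at 2.48, 3.32 and 4.37 CPM in deficient replicates 1, 2 and 3, against 8.61, 8.74 and 4.27 CPM in sufficient replicates 1, 2 and 3. Unlike Slc1a5, it thus put both replicates 3 close to each other, between the other values. Slc43a3 had 18.7 and 18.0 CPM in deficient replicates 1 and 2, against 20.8 and 30.5 CPM in sufficient replicates 1 and 2. Its fall thus rests mainly on sufficient replicate 2. Slc7a11, the cystine exchanger, had 0 or 1 count in every library, and Slc38a5, a further glutamine carrier, had 0.

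Downstream of uptake, 5 of 17 tested genes for glutamine, aspartate and proline enzymes rose in the 4 libraries and none fell, where 9.96% of all tested genes rose and 7.39% fell, with a median log2 fold change of 0.15. Among those that rose were the ornithine aminotransferase gene Oat (0.36 ± 0.07, SE), Gfpt1, which uses glutamine to make hexosamines (0.30 ± 0.06), and the proline dehydrogenase gene Prodh (0.68 ± 0.19). Oat had 71.8, 71.7 and 70.7 CPM in deficient replicates 1, 2 and 3, against 55.7, 56.2 and 76.1 CPM in sufficient replicates 1, 2 and 3, so the groups overlapped as labelled. Glul, which makes glutamine, was at 0.03 ± 0.07 and Asns, which makes asparagine, at 0.02 ± 0.41, and neither passed.

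Among 29 tested lysosomal transporters and amino acid sensors 2 rose and 2 fell in the 4 libraries, a share near the 17.4% called over all tested genes. The median log2 fold change of the 29 was 0.02. The stress-induced leucine sensor genes Sesn1 (-0.39 ± 0.05, SE) and Sesn2 (-0.45 ± 0.13) fell, while Rragd, a Rag GTPase of the mTORC1 dock (0.38 ± 0.09), and Castor2, a relative of the arginine sensor (0.29 ± 0.07), rose. Of 10 mitochondrial amino acid carriers, 0 were called by edgeR and 0 by DESeq2. At an unadjusted edgeR p under 0.05 there were 2, beside 30.6% of all genes tested in the 4 libraries. Of 10 genes for breakdown of branched-chain amino acids, Mccc1 (0.81 ± 0.12) and Acadsb (0.37 ± 0.10) rose, and Mccc2 (-0.77 ± 0.21) and Bcat1 (-0.54 ± 0.16) fell, where 17.4% of all tested genes were called. The 2 subunits of methylcrotonyl-CoA carboxylase, Mccc1 and Mccc2, thus differed in sign. Of 15 regulators and surface partners 2 fell, Myc (-0.32 ± 0.09, adjusted p = 0.0358) and Rnf5 (-0.32 ± 0.09, adjusted p = 0.0248), also a share near the 17.4% called over all tested genes. Myc had 159, 170 and 170 CPM in deficient replicates 1, 2 and 3. In sufficient replicates 1, 2 and 3 it had 184, 228 and 164 CPM. The library labelled deficient replicate 3 thus lay near deficient replicate 2 for Myc, unlike for Slc1a5. Sufficient replicate 3 lay between deficient replicates 1 and 2. In human cells MYC is known to activate SLC1A5, and the RNF5 ligase to mark ASCT2 and SNAT2 for degradation. Atf4 was at 137.9 CPM on average in deficient replicates 1 and 2 and 146.3 CPM in sufficient replicates 1 and 2, a log2 fold change of -0.08 ± 0.06 that did not pass. With all 6 libraries, no gene of these 6 lists passed the edgeR test.

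In the authors' deposited table, whose log2 fold changes run sufficient over deficient and are 3.11 for Trim28, Slc1a5 had 2.14 ± 0.06 (SE), Slc1a4 -2.09 ± 0.13 and Slc6a6 -0.29 ± 0.06, and these 3 of the 10 genes passed its adjusted p of 0.05. Slc43a1 (0.36 ± 0.13, adjusted p = 0.0578) and Slc38a1 (0.16 ± 0.07, adjusted p = 0.135) did not pass in the authors' deposited table. The size of the Slc1a5 value there is near that of the 4-library fit (-2.21). It is far from the value with all 6 libraries as labelled, which was -0.63 with edgeR and with DESeq2. For Slc1a4 the value there (-2.09) lies in size between the edgeR values of the 4-library fit (4.14) and of all 6 libraries (0.88). The deposited table is thus near the 4-library fit in size for Slc1a5 but not for Slc1a4, for which DESeq2 run here on the 4 libraries gave 4.16. The submitters name DESeq2 without a version or settings. Whether the deposited fold changes were estimated in the same way as those here, or were shrunken, was not tested, so the contrast for Slc1a4 is a description only. How libraries were assigned to groups for that table was not tested, and as it comes from the same study it is no independent evidence.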

How the data were processed

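The tools named, per the submitters' processing notes, are HTSeq 0.7.2, TopHat2 2.1.1 and DESeq2, and the build is mm10; their roles are not listed. The TruSeq v2 kit does not mark strand, and no source used here gives the counting annotation. The authors deposited raw counts per Ensembl gene. Their second deposited table holds a mean signal level, log2 fold changes, SE and test scores, and p-values, as sufficient over deficient. Symbols were matched for 32919 of 37991 rows, and the 5072 others held 0.603% of counts. GENCODE M21 gave positions and exon lengths. Of the 10 genes, only Slc6a6 shares exon bases with another gene there (117 of 8457).

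The main test on the counts was that of edgeR 4.0.16 under R 4.3.3 (quasi-likelihood, robust, TMM, filterByExpr, Benjamini-Hochberg over all tested genes at 0.05). SE came from the fold change and the F value. Positive values mean higher in deficient. Shares used an exact permutation test. DESeq2 1.42.0, limma-voom (limma 3.58.1), other factors, no filter, a fold limit of 1.5, a replicate block and leaving out libraries were alternatives. Fits were tested on simulated data. Python 3.11.15, pandas 2.3.3, scipy 1.17.1 and matplotlib 3.10.9 served for tables and plots.

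Members, lists and the 4-library fit were chosen with earlier results of these data known. Named were Trim28, the 10 genes, up to 6 called genes per list, the nearest of 5 like profiles (log2 of CPM + 0.5, mean log2 CPM at least 1, no predicted genes or pseudogenes), and called genes within 500 kb of the pair. Genes that exemplify a list without a call (Glul, Asns, Atf4, Slc7a11, Slc38a5) were named after their values were seen. A few genes covered by these choices are not reported here.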

Additional observations from a re-analysis of the deposited data

How the results depend on the processing

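With all 6 libraries, 0 of the 10 genes were called under every alternative run, and 147 of 150 single-gene values kept their sign and side of the threshold. Over all genes the 2 calls became 6 with DESeq2, 1 with limma-voom, a fold limit of 1.5 or the non-robust fit, and 0 with the replicate block in edgeR (705 at an unadjusted p under 0.05); leaving out single libraries gave 1 to 807, the highest without sufficient replicate 3. Uncalled values changed sign for Slc7a5 without deficient replicate 2 (-0.00015, up to 0.20 without deficient replicate 3), Slc7a1 without deficient replicate 3 (0.0030, down to -0.072 without deficient replicate 2) and Slc38a2 without sufficient replicate 2 (-0.028, up to 0.13 without deficient replicate 2). In the 4 libraries 118 of 130 values stayed, 8 lost a call and 1 gained one. Uncalled values changed sign for Slc38a2 without deficient replicate 1 (-0.059) or sufficient replicate 2 (-0.025), with up to 0.18 without deficient replicate 2, and for Slc7a1 without deficient replicate 1 (0.039, down to -0.052 without deficient replicate 2). Of the 10 genes 5 were called there, 3 with DESeq2 and 2 (Slc1a5 and Slc1a4) with a fold limit of 1.5, and 4 to 5 without single libraries. Over all genes 2114 calls became 935 with DESeq2, 180 with the fold limit and 1632 to 1717 without single libraries, the lone library being assumed to vary like the other group. Upper-quartile factors gave 1046 higher and 1248 lower in place of 1214 and 900, and called the same number of the 10 genes, 5. The replicate block gave 2359 calls in the 4 libraries and 5 of the 10 genes. Deviations of same-numbered libraries correlated at -0.365, -0.292 and -0.613 with all 6 and -0.0198 in the 4, so the numbers are not shown to pair samples. The deficient minus sufficient share was -22.5 percentage points for Slc1a5 in the 4 libraries, beside -7.30 in all 6, and 1.73 for Slc1a4, beside 0.584. The 4 libraries leave out deficient replicate 3, with a Slc1a5 share of 31.8%, and sufficient replicate 3, with 8.59%. Why these libraries go against their label was not tested. Depth limits Slc1a4, with 7 to 15 counts in 3 libraries.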
